A study of Mus musculus with 12 samples.

Results

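The 10 genes described here encode AP-1 transcription factors and products of immediate early genes: Fos, Fosl1, Fosl2, Jun, Junb, Jund, Atf3, Egr1, Ier2 and Ier3. They were taken as a list of names, and all 10 were found among the 55487 genes of the count table through GENCODE M21 symbols. AP-1 is a dimer of basic leucine zipper proteins, in which a Jun protein pairs with a Fos protein, with another Jun protein or with a factor of the ATF family, and binds short palindromic DNA elements in promoters and enhancers. Immediate early genes are transcribed within minutes of a growth factor, serum or stress signal without new protein synthesis, chiefly through MAP kinases, serum response factor and CREB. In fibroblasts and liver cells these genes are known for their response to serum, injury and partial hepatectomy, and several of them stay on at lower levels in growing cultures.

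RNA-seq was made of 2 kinds of recipient cell, each kept for 4 days in medium that immortalised mouse embryonic fibroblasts had conditioned for 48 h. The donor fibroblasts were either control cells or cells in which Bach1 was expressed again, which the labels call ferroptotic. The recipients were the mouse hepatoma line Hepa1, wild type by its label, and primary mouse embryonic fibroblasts with a Bach1 knockout by theirs (MEFs in what follows), with 3 libraries in each of the 4 groups of cell type and medium. All 4 groups shared 10% fetal bovine serum in the conditioned medium, added 2-mercaptoethanol (0.1 mM) and vitamin E (0.4 mg/mL), and daily replacement of the medium. The labels used here give no time between the last replacement and harvest, so levels of these fast-responding transcripts are those at an unstated interval after fresh serum. No wild-type MEFs and no cells in unconditioned medium were analysed here, and in the comparison between recipients the cell type, the genotype and the line cannot be told apart.

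On GRCm38, with GENCODE M21, the Jun genes are Jun (ENSMUSG00000052684, chr4:95049034-95052222, minus strand), Junb (ENSMUSG00000052837, chr8:84974484-84978718, minus strand) and Jund (ENSMUSG00000071076, chr8:70698949-70700616, plus strand). The Fos genes are Fos (ENSMUSG00000021250, chr12:85473890-85477273, plus strand), Fosl1 (ENSMUSG00000024912, chr19:5447547-5455946, plus strand) and Fosl2 (ENSMUSG00000029135, chr5:32135801-32157842, plus strand). The others are Atf3 (ENSMUSG00000026628, chr1:191170296-191218039, minus strand), Ier2 (ENSMUSG00000053560, chr8:84661331-84662852, minus strand), Ier3 (ENSMUSG00000003541, chr17:35821684-35822923, plus strand) and Egr1 (ENSMUSG00000038418). Coordinates are of the whole gene, exons and introns. Exonic bases are shared with other genes by Fosl1 (1163, with Ccdc85b), Jund (877, with Gm11175), Jun (232, with Junos) and Junb (173, with Prdx2).

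The libraries held between 18.58 M and 23.4 M counted reads, so that 3 counts correspond to 0.128 to 0.161 CPM, the unit used here, which scales counts to a library of 1 M reads. Albumin (Alb) had 1988 reads in Hepa1 in control and 18220 in ferroptotic medium and 0 in MEFs, whereas the collagen gene Col1a2 had 1014955 and 946669 reads in the MEF groups and 38 and 410 in the Hepa1 groups. Of 8 hepatocyte markers, Apoa1, Ttr and Serpina1a were at 0 in Hepa1 in both media and the summed level of the list went from 483–499 to 1647–1797 CPM there. Bach1 itself was read at 77.4 ± 4.78 and 75.2 ± 2.75 CPM in the MEF groups (SD, n = 3), and since counts over the whole gene may lie outside the deleted part they do not check that label. In 28 genes abundant in MEFs and nearly unread in Hepa1 control medium, the third ferroptotic Hepa1 library held 0.118% of the MEF level, against 0.00439 to 0.0143% in the other 5 Hepa1 libraries. For the 10 genes such a share would amount to at most 0.308% of the reads in that library (Egr1). The third Hepa1 control library was the highest of its group for 9 of the 10 genes, all but Egr1. Without either library at least 9 of the 10 genes remained lower in ferroptotic medium in Hepa1. The summed level of fibroblast markers went from 1814–2132 to 2746–2815 CPM and that of macrophage markers from 26.9–32.9 to 10.5–12.9 CPM in Hepa1, with Ptprc at 0 in every library. In MEFs these lists went from 44855–46790 to 38224–39516 CPM and from 4.00–5.12 to 7.22–8.55 CPM. The proliferation gene Mki67 went from 12.9 to 82.6 CPM in Hepa1 and from 3.47 to 15.2 CPM in MEFs. The share of mitochondrial transcripts was 0.666–0.683% in control and 0.413–0.427% in ferroptotic medium in Hepa1 and 0.941–1.01% and 1.08–1.09% in MEFs. The part of these differences in the results was not tested.

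The region next to the transcription start is shown for Fos, Jun, Junb and Ier3, 4 of the genes that fell in both recipients, each with a stretch free of annotated exons. Jund, whose RefSeq and GENCODE starts lie far apart, is not shown. Each stretch is 100 bases of the RefSeq window on GRCm38.p6, read 5′ to 3′ on the gene's strand. It ends just before the RefSeq start for Fos (chr12:85473790-85473889, plus strand), Jun (chr4:95052223-95052322, minus strand) and Junb (chr8:84978749-84978848, minus strand). For Junb the RefSeq start (84978748) lies upstream of the GENCODE start (84978718). For Ier3 it covers bases -129 to -30 (chr17:35821584-35821683, plus strand). Capitals mark GGGCGG or its complement, TGACATCA, TGACGT and TATAAA.
Fos: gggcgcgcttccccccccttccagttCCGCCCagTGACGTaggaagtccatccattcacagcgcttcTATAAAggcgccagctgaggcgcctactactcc
Jun: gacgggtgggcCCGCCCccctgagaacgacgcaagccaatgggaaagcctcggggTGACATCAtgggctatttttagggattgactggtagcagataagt
Junb: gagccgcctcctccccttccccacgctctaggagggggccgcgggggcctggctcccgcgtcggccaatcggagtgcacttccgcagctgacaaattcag
Ier3: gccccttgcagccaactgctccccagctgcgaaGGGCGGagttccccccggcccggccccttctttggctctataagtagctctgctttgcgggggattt

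Windows of 250 bases before to 50 after the start were searched on both strands for 7 of the genes (Fos, Fosl2, Jun, Junb, Jund, Atf3 and Ier3). The Jun window holds TGACATCA at bases -45 to -38 from the start, a sequence in 3.62% of 32851 such windows in the table. TGACGT, the core of the element that CREB and ATF proteins bind, stands at -66 to -61 in Fos and at -8 to -3 in Atf3 on the opposite strand, and in 7.51% of all windows. This motif was chosen after the sequences were seen, and it overlaps any TGACGTCA. The box TATAAA, in 13.6% of all windows, lies at -33 to -28 in Fos and at 1 to 6 in Junb. Positions count from the RefSeq start, and by the GENCODE start of Junb its box lies before the start. GGGCGG was found in 5 of 7 windows (Fos, Fosl2, Jun, Atf3 and Ier3) and in 35.7% of all. The AP-1 element TGACTCA (5.20% of all windows), the full element TGACGTCA (1.79%), the CArG box of serum response factor (1.63%) and TGAGTCAGC, bound by small Maf proteins with Bach1 (0.414%), were in 0 of the 7. These matches describe letters in a window, and no binding was measured. Sequence beyond the windows and the remaining genes were not searched, and the Jund window lies at a RefSeq start far from the GENCODE start. A motif absent here may thus stand elsewhere.

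In Hepa1, transcripts of 9 of the 10 genes were lower in ferroptotic than in control medium and 0 were higher, and for the same 9 the libraries of the media did not overlap, as for 62.6% of all genes. The largest falls were those of Ier3 (4.13-fold), Fosl1 (3.59-fold) and Junb (2.85-fold), and the smallest that of Atf3 (1.16-fold). Among all 13169 genes tested, 58.1% passed the test, 29.3% as higher and 28.8% as lower. Of the 9, 5 fell by at least 1 on the log2 scale, which 2.07% of all tested genes did, and the median change of the 10 genes was -1.09 against 0.00446 over all genes. The test was edgeR's quasi-likelihood F-test on 6 libraries with Benjamini-Hochberg adjustment over all genes, and a call is an adjusted p under 0.05. CPM by library are normalised within the cell type and given in the order of replicates 1 to 3. The bulk libraries cannot tell fewer cells that express a gene from less RNA in each cell.

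The Jun proteins pair among themselves and are the usual partners of Fos proteins. Junb, which forms dimers of weaker activity than Jun on many elements and is itself strongly serum-induced, stood at 443, 446 and 503 CPM in control and 166, 162 and 162 CPM in ferroptotic medium in Hepa1. The 3 ferroptotic libraries lay far below all 3 controls, and the change was -1.51 ± 0.0411 (log2 ± SE, edgeR adjusted p = 6.78e-22, n = 3 per group). Jun, the founding member, stood at 67.2, 64.7 and 74.4 CPM in control and 35.5, 34.7 and 35.8 CPM in ferroptotic medium. Its groups did not overlap, with a change of -0.96 ± 0.0540 (adjusted p = 7.97e-15, edgeR). Jund, the member least dependent on serum, was at 219.6, 206 and 244 CPM in control and 165, 160.1 and 166 CPM in ferroptotic medium. It too was lower in every ferroptotic library, by a smaller -0.45 ± 0.0439 (adjusted p = 9.39e-10, edgeR).

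The Fos proteins cannot pair with themselves and bring distinct stabilities and activities to the dimer. Fosl1 (Fra-1), which is linked to migration and invasion of tumour cells, was at 35.1, 35.1 and 41.6 CPM in control and 11.9, 9.76 and 9.43 CPM in ferroptotic medium in Hepa1. The groups were far apart and the change was -1.84 ± 0.0839 (adjusted p = 6.45e-17, edgeR). In GENCODE M21, 57.2% of the exonic bases of Fosl1 lie opposite exons of Ccdc85b on the other strand. Strand use in the authors' counting is not given in the sources used here, so reads of the pair may not have been told apart, and Ccdc85b rose in Hepa1 (0.43 on the log2 scale, adjusted p = 9.76e-09, edgeR). Fosl2 (Fra-2), a factor of bone, skin and lipid-storing cells, was at 148, 148 and 151 CPM in control and 65.0, 61.5 and 58.7 CPM in ferroptotic medium. The groups did not overlap, and Fosl2 fell by 1.27 ± 0.0420 on the log2 scale (adjusted p = 4.39e-20, edgeR). Fos, the classical transient member, was at 8.69, 9.21 and 9.49 CPM in control and 4.95, 5.94 and 5.51 CPM in ferroptotic medium. Its change was -0.74 ± 0.107 (adjusted p = 1.07e-06, edgeR), with no overlap between the groups.

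Of the other genes, Ier3, a short-lived stress protein that affects survival signalling, had the largest change of the 10 in Hepa1. It went from 77.9, 77.5 and 81.9 CPM to 19.2, 21.1 and 17.2 CPM, a change of -2.05 ± 0.0594 (adjusted p = 2.64e-21, edgeR), and its groups were far apart. Egr1, a zinc finger factor induced through serum response factor, was at 179, 213 and 195 CPM in control and 79.1, 83.1 and 90.0 CPM in ferroptotic medium. The groups did not overlap and the change was -1.22 ± 0.0515 (adjusted p = 1.19e-17, edgeR). Atf3, a stress-induced basic leucine zipper factor that often acts as a repressor, was at 101, 108 and 119 CPM in control and 95.4, 95.5 and 92.6 CPM in ferroptotic medium. The groups lay close to each other without overlap, with a change of -0.21 ± 0.0470 (adjusted p = 0.000340, edgeR). Ier2, a nuclear immediate early protein, was at 114, 109.8 and 130.1 CPM in control and 109, 105 and 114 CPM in ferroptotic medium. Its groups overlapped, and the change of -0.11 (95% interval, not adjusted, -0.21 to -0.01) missed the threshold (adjusted p = 0.0629, edgeR). That call turned on single libraries, since the adjusted p was 0.0450 without the first control library, 0.00392 without the second and 0.0476 without the third ferroptotic library.

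**Figure D1:**
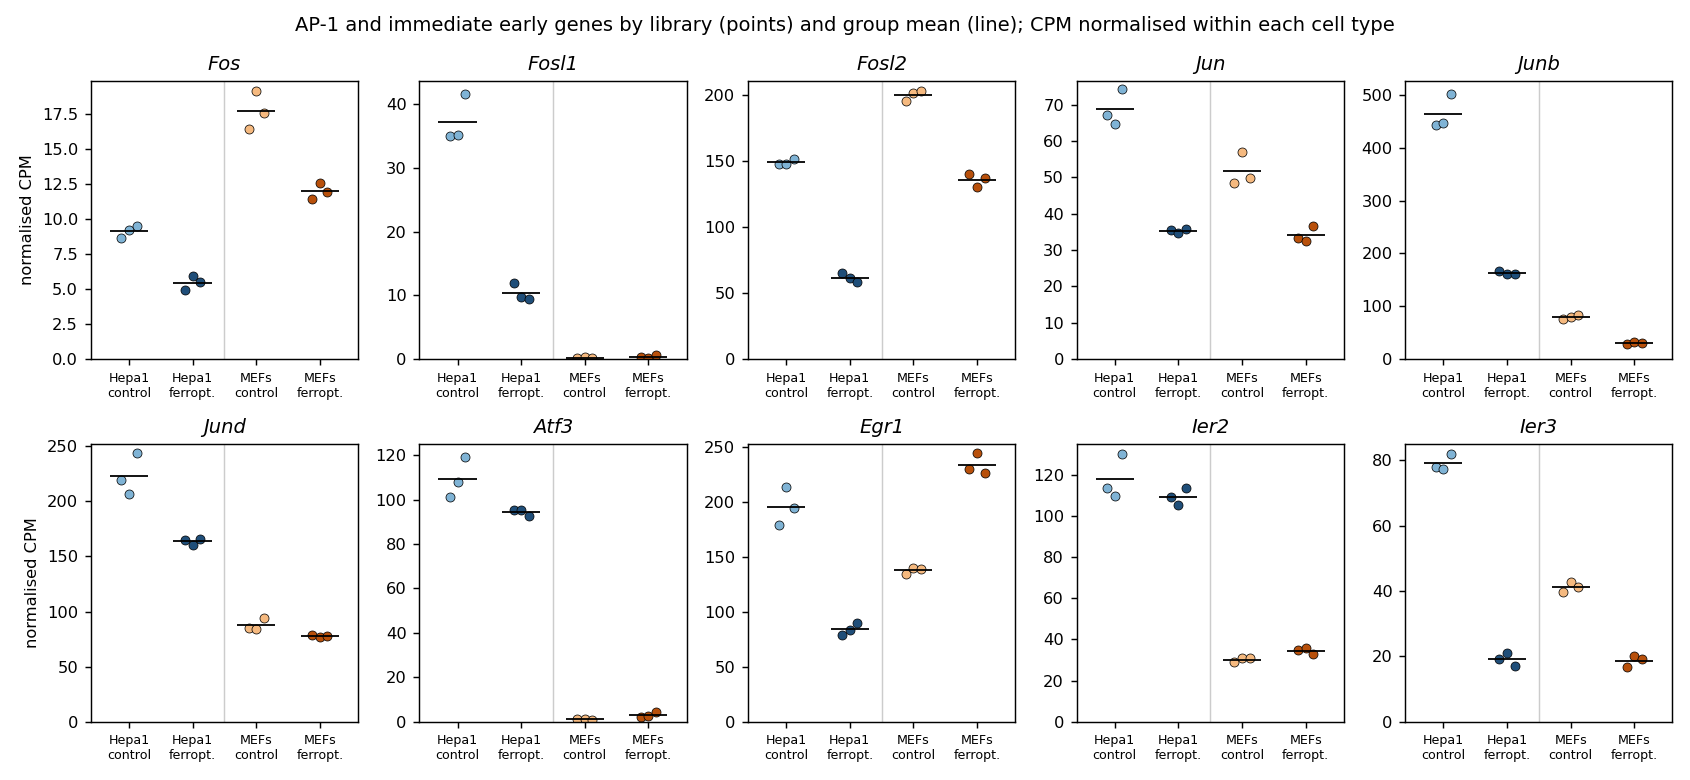
Normalised CPM (vertical axes, linear from 0, 1 scale per panel) of the 10 genes in each library (points) of the 4 groups, with the group mean as a line. Normalisation was within each recipient, so heights can be compared between media but not between Hepa1 and MEFs. In Hepa1 the control and ferroptotic libraries are separate for 9 genes and overlap for Ier2, and Egr1 goes down in Hepa1 and up in MEFs.

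In MEFs the same medium was followed by a split pattern: Fos, Fosl2, Jun, Junb, Jund and Ier3 were lower and Atf3, Egr1 and Ier2 were higher. All 9 genes with enough reads to be tested passed, 6 as lower and 3 as higher, against 55.0% of all 14441 genes tested, 27.2% as lower and 27.8% as higher. In all 9 the libraries of the media did not overlap, which was so for 60.2% of all genes. Junb and Ier3 fell by at least 1 on the log2 scale, as 2.38% of all genes did, and the median change was -0.56 against 0.0033 over all genes. Fosl1 had 13 reads over the control and 27 over the ferroptotic libraries and was left out by the filter on low counts.

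Among the Jun genes, Junb was at 75.8, 79.1 and 83.5 CPM in control and 28.1, 32.2 and 30.3 CPM in ferroptotic medium in MEFs. The groups were far apart, at -1.39 ± 0.0461 (log2 ± SE, edgeR adjusted p = 1.56e-31, n = 3 per group). Jun was at 48.6, 56.9 and 49.8 CPM in control and 33.3, 32.4 and 36.7 CPM in ferroptotic medium, a change of -0.60 ± 0.0516 (adjusted p = 1.03e-14, edgeR). Jund was at 85.4, 83.8 and 94.2 CPM in control and 78.6, 77.1 and 77.8 CPM in ferroptotic medium, a change of -0.17 ± 0.0375 (adjusted p = 9.54e-05, edgeR). All 3 Jun genes were thus lower in every ferroptotic library, Junb the most and Jund the least, which is the order seen in Hepa1. Among the Fos genes, Fosl2 was at 196, 201 and 203 CPM in control and 139.9, 131 and 137 CPM in ferroptotic medium, a change of -0.56 ± 0.0305 (adjusted p = 3.32e-22, edgeR). Fos was at 16.5, 19.2 and 17.6 CPM in control and 11.5, 12.6 and 11.9 CPM in ferroptotic medium, a change of -0.57 ± 0.0738 (adjusted p = 3.38e-09, edgeR). The groups overlapped for neither gene.

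Egr1 rose in MEFs, from 134, 139.9 and 139 CPM in control to 229.5, 245 and 226 CPM in ferroptotic medium. Every ferroptotic library exceeded every control library, and the change was 0.76 ± 0.0310 (adjusted p = 1.46e-27, edgeR). Ier2 went from 28.8, 30.9 and 30.9 CPM to 34.8, 35.7 and 32.9 CPM, a small rise of 0.19 ± 0.0515 (adjusted p = 0.00148, edgeR) without overlap. Atf3 was read at a low level, 1.05, 1.41 and 0.879 CPM in control and 2.13, 2.56 and 4.24 CPM in ferroptotic medium, from 71 and 206 reads per group. Its change was 1.42 ± 0.224 (adjusted p = 3.42e-07, edgeR), with the third ferroptotic library well above the other ferroptotic libraries. Ier3 went the way it did in Hepa1, from 39.8, 42.9 and 41.4 CPM to 16.7, 20.0 and 19.3 CPM, a change of -1.15 ± 0.0572 (adjusted p = 7.08e-24, edgeR), again without overlap. For Fosl1 the libraries held 3 to 6 reads in control and 5 to 14 in ferroptotic medium, and without the filter the change was 0.92 (adjusted p = 0.188, edgeR).

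Counted over both recipients, 6 of the 10 genes (Fos, Fosl2, Jun, Junb, Jund and Ier3) fell in Hepa1 and in MEFs, which 10.4% of the 12042 genes tested in both did. Egr1 and Atf3 fell in Hepa1 and rose in MEFs, as did 7.66% of those genes.

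**Figure D2:**
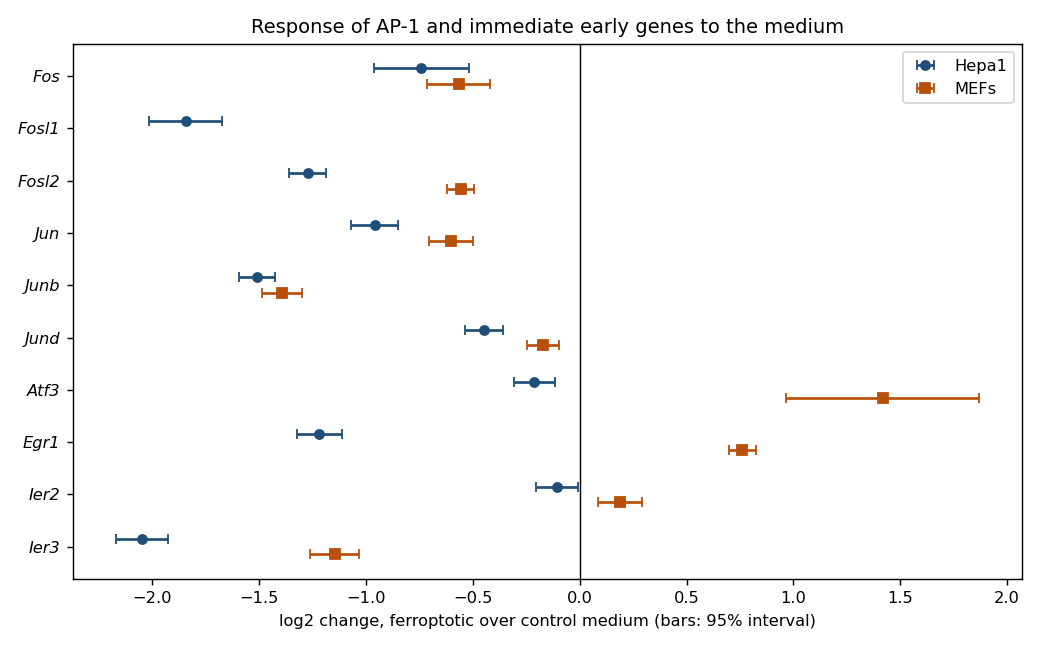
Log2 change from control to ferroptotic medium (horizontal axis) with its 95% interval for each gene in Hepa1 (circles) and MEFs (squares). Of the 10 Hepa1 values all lie below 0, from -2.05 to -0.11, while Atf3, Egr1 and Ier2 lie above 0 in MEFs and Fosl1 has no MEF value.

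Whether MEFs and Hepa1 responded unequally was tested in 1 fit to the 12 libraries, as an interaction of recipient and medium. Fosl1 was left out, since it passed the filter on low counts only through its Hepa1 reads. The response differed for 7 of the 9 genes tested in both recipients, each time with the MEF value higher (less of a fall, or a rise). Of 12042 genes tested in both, 54.0% differed, 25.9% with the MEF value higher and 28.1% with it lower. Egr1 differed by 1.98 ± 0.0665 on the log2 scale (adjusted p = 1.44e-27, edgeR), the largest difference of the 9. Atf3 differed by 1.63 ± 0.235 (adjusted p = 1.41e-07, edgeR). Ier3 and Fosl2 fell in both recipients but by 0.90 and 0.71 less in MEFs (adjusted p = 6.99e-12 and 3.29e-15, edgeR). Jun, Ier2 and Jund differed by 0.36, 0.29 and 0.27 (adjusted p = 0.000330, 0.00145 and 0.000416, edgeR). For Junb and Fos no difference was shown, with values of 0.11 (95% interval -0.02 to 0.25, adjusted p = 0.189, edgeR) and 0.17 (-0.10 to 0.44, adjusted p = 0.320, edgeR).

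Levels between genes were compared as RPKM, which divides CPM by the kilobases of exon, over the union of a gene's exons. The CPM used for this were normalised over all 12 libraries together, and differ from the CPM by library given above. In Hepa1 in control medium the order was Junb at 167 RPKM, Jund at 111, Ier2 at 64.0, Ier3 at 57.8, Atf3 at 42.0, Egr1 at 36.1, Jun at 17.8, Fosl1 at 15.1, Fosl2 at 12.7 and Fos at 3.21. The libraries of Ier2 and Ier3, of Atf3 and Egr1 and of Jun and Fosl1 overlapped, so these neighbours have no order. In ferroptotic medium Jund led at 80.9 RPKM, Ier2 and Junb overlapped at 59.4 and 58.5, Atf3 stood at 36.2, Egr1 and Ier3 overlapped at 15.5 and 14.0, and Jun (9.14), Fosl2 (5.26), Fosl1 (4.20) and Fos (1.92) followed. Junb thus moved from first place in Hepa1 to overlap with Ier2. Of the exonic bases of Jund 52.6% are shared with Gm11175, which had 0 reads in every library. A further length was that of the unshared exonic bases alone. All reads of a gene were divided by it, so its values are too high if reads on shared bases were counted. By this length Jund exceeded Junb in Hepa1 control medium, at 233 against 180 RPKM. Fosl1 then stood at 35.4 RPKM in control medium, near Egr1 (36.1), and at 9.82 in ferroptotic medium, near Jun (9.86) and above Fosl2. The places of Jund and Fosl1 in the order thus depend on the length used, and other places may too. The longest transcript of Fosl2 has 6537 bases against 9680 for the union of its exons, and that of Junb 1809 against 2301. No order by longest transcript was made, so the places of Fosl2 and Junb among their neighbours hold for the union only.

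In MEFs in control medium Jund led at 63.8 RPKM, Ier3 and Junb overlapped at 44.3 and 41.9, Egr1 stood at 37.2, Fosl2 and Ier2 overlapped at 25.1 and 24.0, and Jun stood at 19.7 and Fos at 9.15. Atf3 (0.628 RPKM) and Fosl1 (0.122 RPKM) were the lowest there, and the 3 to 6 reads per library of Fosl1 lie near the floor of 3 counts. In ferroptotic medium Egr1 came first at 62.9 RPKM, ahead of Jund at 56.4, Ier2 at 27.4, Ier3 at 19.9, Fosl2 and Junb overlapping at 17.0 and 15.9, Jun at 12.9, Fos at 6.17, Atf3 at 1.67 and Fosl1 at 0.232. Over the union of exons Egr1 thus moved from the fourth to the first place. With all reads divided by the unshared exonic length, Jund exceeded Egr1 in ferroptotic medium, at 119 against 62.9 RPKM.

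**Figure D3:**
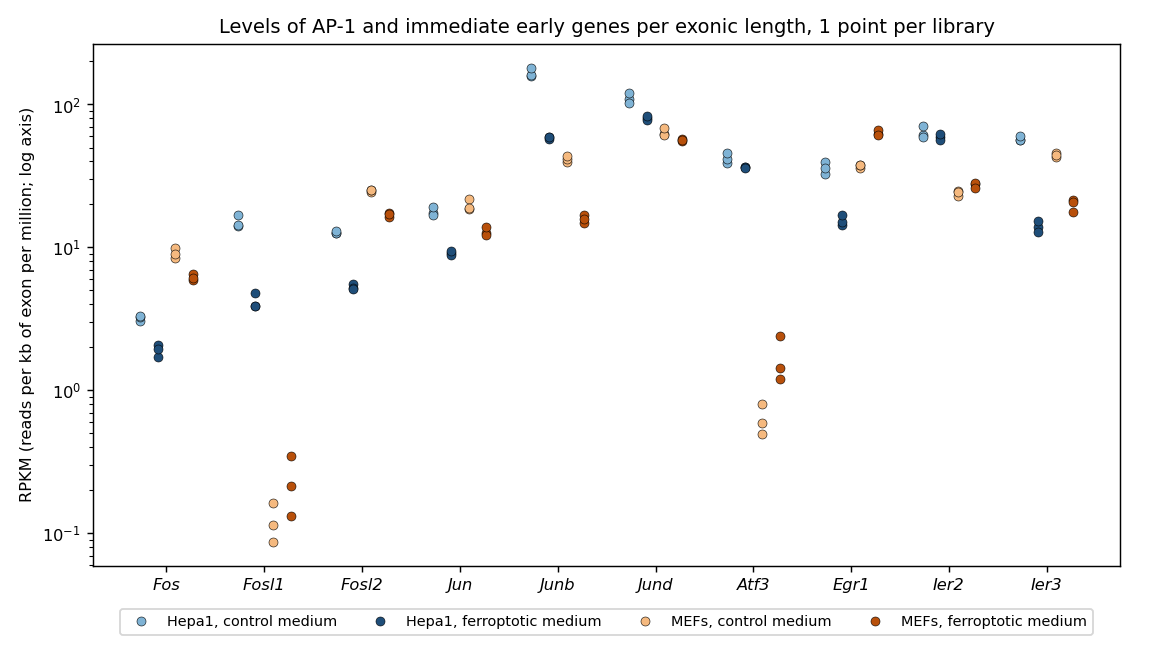
RPKM (vertical log axis) of each gene in each of the 12 libraries, coloured by group. Atf3 and Fosl1 are low in MEFs (0.122 to 1.67 RPKM as group means) and high in Hepa1 (4.20 to 42.0), while Fos and Fosl2 are higher in MEFs.

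Between recipients in the same medium, Fosl1 and Atf3 showed the widest gaps. In control medium MEFs had lower levels than Hepa1 of Fosl1 (-6.91 on the log2 scale), Atf3 (-6.05), Junb (-1.99), Ier2 (-1.41), Jund (-0.79) and Ier3 (-0.38), and higher levels of Fos (1.51), Fosl2 (0.98) and Jun (0.15, but -0.42 without scaling). These 9 passed the test, with 3 higher and 6 lower, but so did 86.6% of all 15627 genes (46.0% higher, 40.7% lower). Fosl1 entered this test through its Hepa1 reads, its value rests on 13 MEF reads, and its call supports nothing. In ferroptotic medium all 10 passed, 5 as higher and 5 as lower, against 88.2% of all genes (46.7% higher, 41.5% lower). The higher were Egr1 at 2.02, Fos at 1.69, Fosl2 at 1.69, Ier3 at 0.52 and Jun at 0.50, the last 2 just under 0 without scaling. Fosl1 (-4.15) is counted among the lower, but it again entered through its Hepa1 reads. Its value rests on 27 MEF reads, and its call supports nothing here either. For Egr1 in control medium no difference was shown, at 0.05 (95% interval -0.05 to 0.14, adjusted p = 0.345, edgeR).

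The direction for some genes depends on how the libraries were scaled. Without scaling beyond total counts the median of all genes moved from 0.08 to -0.49 in control and to -0.46 in ferroptotic medium. Jun and Egr1 were then lower in MEFs in control medium (-0.42 and -0.52), and Jun and Ier3 stood at -0.04 and -0.02 in ferroptotic medium. Relative to the median of all genes, Jun stood at 0.07, Egr1 at -0.03 and Ier3 at -0.46 in control medium and at 0.42, 1.95 and 0.44 in ferroptotic medium under each scaling. A change of scaling shifts all genes nearly alike, so this sameness is fixed by the calculation and cannot tell which scaling is right. The call for Jun in control medium (adjusted p = 0.0116, edgeR) was lost without the first (0.0528) or second (0.0872) Hepa1 control library or without the second MEF control library (0.278). Egr1 in that medium stood at -0.02 without the first Hepa1 control library and passed the test without the second (adjusted p = 0.0174, edgeR).

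Within each family the make-up of the transcript pool was described as the share of the family's reads per kilobase. In Hepa1 the pool of Fos-family transcripts was mostly Fosl1 and Fosl2, and in MEFs mostly Fosl2 and Fos. The share of Fosl1 in Hepa1 was 48.4 ± 2.02% in control and 36.7 ± 2.63% in ferroptotic medium (n = 3 per group, exact two-sided permutation p = 0.1, the smallest that 3 against 3 can give). Fosl2 made up 40.8 ± 1.78% in control and 46.0 ± 0.398% in ferroptotic medium there and Fos 10.3 ± 0.356% in control and 16.8 ± 2.24% in ferroptotic medium (exact permutation p = 0.1 each). The libraries of the media did not overlap for these 3 shares, with Fosl1 giving way to the other two. With all reads divided by the unshared exonic length, Fosl1 held 68.6% in control and 57.4% in ferroptotic medium. In MEFs the shares of Fosl2 (69.5 ± 1.39% in control and 70.9 ± 1.64% in ferroptotic medium) and Fos (25.3 ± 1.16% in control and 25.8 ± 1.54% in ferroptotic medium) overlapped between media (exact permutation p = 0.4 and 0.6, n = 3). The share of Fosb, the fourth Fos gene, was 4.82 ± 0.434% in control and 2.38 ± 0.360% in ferroptotic medium (exact permutation p = 0.1, n = 3), without overlap.

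In the Jun family, over the union of exons, the larger share in Hepa1 was that of Junb in control and that of Jund in ferroptotic medium. Junb made up 56.5 ± 0.823% in control and 39.4 ± 0.492% in ferroptotic medium, and Jund 37.5 ± 0.777% in control and 54.5 ± 0.446% in ferroptotic medium (exact two-sided permutation p = 0.1 each, n = 3, the smallest possible). In MEFs Junb made up 33.4 ± 0.211% in control and 18.6 ± 1.20% in ferroptotic medium, and Jund 50.9 ± 1.62% in control and 66.2 ± 1.16% in ferroptotic medium (exact permutation p = 0.1 each, n = 3). In both recipients the libraries of the media did not overlap for either share. Jun held 6.04 ± 0.0550% in control and 6.16 ± 0.0484% in ferroptotic medium in Hepa1 and 15.7 ± 1.53% in control and 15.2 ± 0.862% in ferroptotic medium in MEFs (exact permutation p = 0.1 and 0.7, n = 3). The sign of the small change in the share of Jun turned with the length used in both recipients and with a library left out in MEFs. With all reads divided by the unshared exonic length, Jund held the larger share in Hepa1 in both media. As plain reads, the shares of Junb (45.0 ± 0.509%) and Jund (45.2 ± 0.424%) overlapped in Hepa1 in ferroptotic medium, so neither was the larger there.

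**Figure D4:**
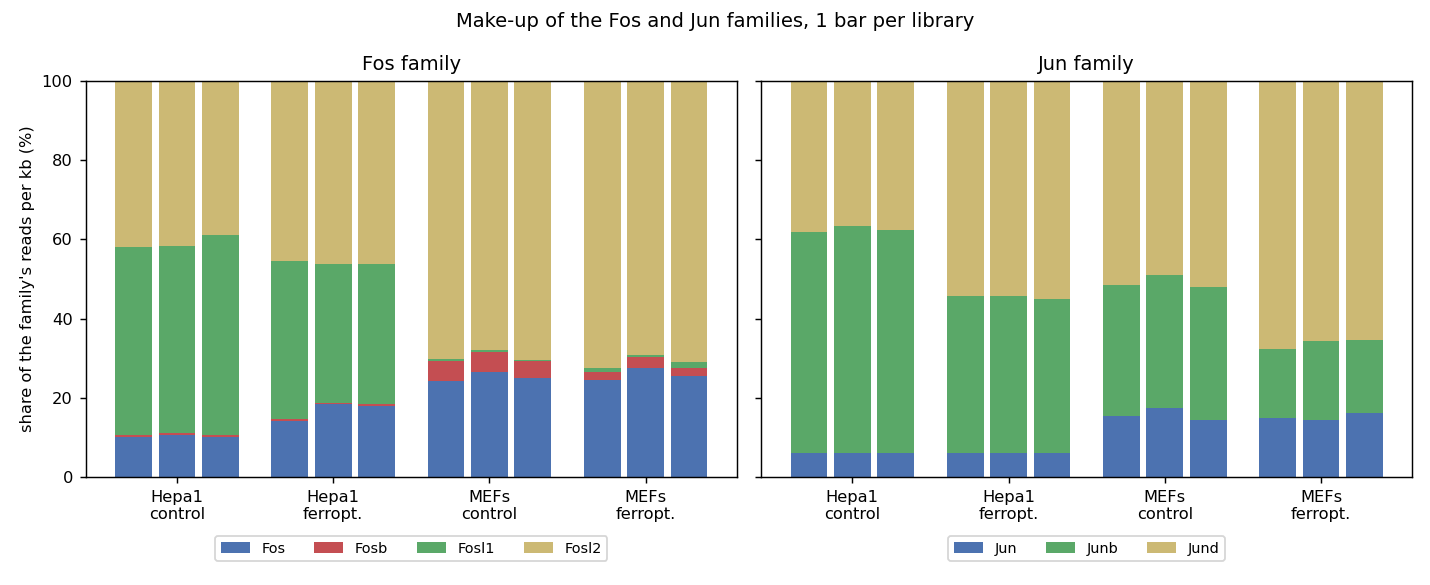
Share of each family's reads per kilobase (vertical axis, %) taken by each gene, with 1 stacked bar per library, for the Fos family (left) and the Jun family (right). Junb takes 56.5% on average in Hepa1 control medium and 39.4% in ferroptotic medium, and Fosl1 is nearly invisible in the MEF bars (0.336 and 0.964% on average).

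Other genes of the pathway were described from 4 lists. Of 16 other AP-1 and basic leucine zipper partner genes, 13 were tested in Hepa1, where 2 rose and 9 fell (median -0.40), and 14 in MEFs, where 4 rose and 5 fell (median -0.07). Of all genes 58.1% passed in Hepa1 and 55.0% in MEFs, and the MEF count is near that share. In Hepa1 the small Maf genes, whose products lack a transactivation domain and pair with Bach1 and with Nrf2, were lower. Maff went from 168 ± 10.8 to 56.7 ± 3.05 CPM (-1.57 on the log2 scale), Mafk from 217 ± 11.8 to 102 ± 3.28 CPM (-1.09) and Mafg from 415 ± 9.70 to 302 ± 4.51 CPM (-0.46). Maf, which has a transactivation domain, went the other way in Hepa1, from 19.3 ± 0.182 to 72.3 ± 1.45 CPM (1.90). In MEFs Ddit3 (CHOP), a stress-induced factor, rose by 0.87, and Cebpb fell by 0.64. Fosb fell by 1.61 in MEFs from 8.96 CPM. In Hepa1 its value was -1.57 from a level of 1.26 CPM, with 73 reads over the control and 25 over the ferroptotic libraries. Fosb entered the Hepa1 test through its control reads, so its call there, counted among the 9, supports nothing. All SDs are over 3 libraries.

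Of 40 other early response genes, 36 were tested in Hepa1, where 4 rose and 26 fell (median -0.69), and 39 in MEFs, where 10 rose and 26 fell (median -0.38), beside medians over all genes of 0.00446 and 0.0033 and shares of all genes that fell of 28.8 and 27.2%. In Hepa1 the leading genes by p were Ccn1 (CYR61), a secreted matricellular protein, at -2.92, Dusp1, a phosphatase that switches off MAP kinases, at -2.13, the circadian repressor Bhlhe40 at -2.07 and Cited2, a binder of the coactivators CBP and p300, at -1.60. In MEFs they were the kinase gene Sgk1 (-2.20), Ccn2 (CTGF, -1.25), Ccn1 (-0.996) and Trib1 (-1.55). Chosen after their values were seen, the relatives of Egr1 rose with it in MEFs, Egr2 from 1.20 ± 0.460 to 3.41 ± 0.0694 CPM (1.50, adjusted p = 3.66e-09, edgeR) and Egr3 from 3.59 ± 0.396 to 10.6 ± 0.839 CPM (1.56, adjusted p = 1.03e-17, edgeR). In Hepa1 Egr2 was at 0.04 (adjusted p = 0.917, edgeR) at 0.929 and 0.954 CPM, and Egr3 had too few reads to be tested. The response of Egr2 differed between the recipients (1.46, adjusted p = 0.00133, edgeR).

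Of 22 upstream regulators (ternary complex factors, cofactors of serum response factor and MAP kinases), all tested in each recipient, 3 rose and 13 fell in Hepa1 (median -0.14) and 4 rose and 10 fell in MEFs (median -0.04). Of all genes 58.1 and 55.0% passed, and the MEF count is near that share. Among the leading genes by p were Map2k1 (-0.42), Elk4 (-0.40) and Mapk9 (-0.31) in Hepa1 and Braf (-0.39), Mef2a (0.36), Mef2d (-0.32) and Elk3 (-0.21) in MEFs. These are levels of transcripts, and kinase activity was not measured. Of 24 genes known as AP-1 targets, 15 were tested in Hepa1, where 2 rose and 11 fell (median -0.72), and 21 in MEFs, where 2 rose and 17 fell (median -0.93), beside 28.8 and 27.2% of all genes that fell. These falls include Mmp3 (1.55 to 0.0451 CPM) and Mmp13 (1.28 to 0.0864 CPM) in MEFs and Mmp3 (0.707 to 0.354 CPM) in Hepa1. They passed the filter on low counts through their control reads and could be called only as lower, so their calls support nothing. In Hepa1 the collagenase gene Mmp13 (-3.23) and the urokinase receptor gene Plaur (-1.14) fell, while the cyclin gene Ccnd1 rose from 197 ± 20.3 to 466 ± 5.02 CPM (1.24). In MEFs osteopontin (Spp1, -1.51), Timp1 (-1.37) and Il1rl1 (-2.22) fell. Whether the targets' change follows from that of the AP-1 genes was not tested.

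**Figure D5:**
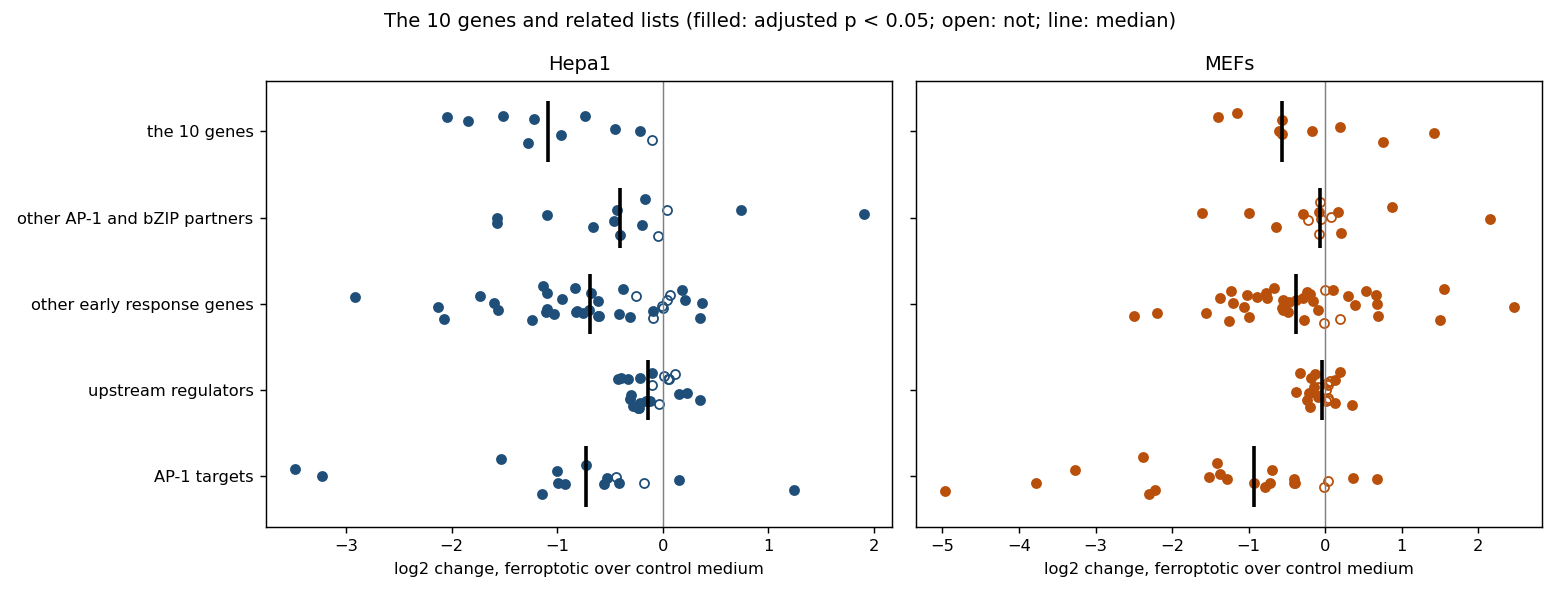
Log2 change from control to ferroptotic medium (horizontal axes, a different range in each panel) of every tested gene of the 10 and of the 4 related lists in Hepa1 (left) and MEFs (right). Filled points passed an adjusted p of 0.05, open points did not, and black lines are medians, the lowest of which are -1.09 for the 10 genes in Hepa1 and -0.93 for AP-1 targets in MEFs.

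The genes most like each of the 10 were found by Pearson's r of log2 CPM over the 12 libraries after centring each recipient on its mean. The 12 points share the difference between media in 2 recipients, and the correlations are a description. Fosl2 was most like Esd (r = 0.998) and Dusp1 (0.997), Junb like Fbxo32 (0.996), and Ier3 like Rnd1 (0.995) and Maff (0.994). Egr1 was most like Mdn1 (0.996), which also went down in Hepa1 (-0.70) and up in MEFs (0.45). For the rest the closest genes were Hmga1b, nearly identical in sequence to Hmga1 and so of uncertain counts, for Jun (0.990), Ctns for Fosl1 (0.989), Cyth2 for Jund (0.983), Bmf for Fos (0.982), Chst10 for Atf3 (0.967) and Pcdhb19 for Ier2 (0.947). Chst10 and Pcdhb19 had too few reads to be tested in Hepa1, and Fosl1 had at most 14 reads per MEF library.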

How the data were processed

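Libraries were built from 100 ng of RNA with the NEBNext Ultra II kit, per the labels' protocols. The deposited values are raw read counts per Ensembl gene, made by the authors. FastQC 0.11.9, Trimmomatic 0.39, STAR 2.7.10a, HTSeq 0.9.1 and GRCm38 (mm10) were used, per the submitters' processing notes. Neither the annotation release nor how strand was handled is given in the sources used here. The summary lines of HTSeq were set apart, among them reads on no gene (2.00 to 2.58%) and ambiguous reads (3.66 to 4.03%). The floor of 3 counts per library covers counting error only.

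Genes were named and measured (union of exons) with GENCODE M21. Each recipient's 6 libraries were fitted with edgeR 4.0.16 (filterByExpr, TMM, quasi-likelihood F-test) in R 4.3.3, and interactions and contrasts between recipients on all 12 libraries. Responses were set against each other only for genes that passed the filter in both recipients, with p adjusted over the whole fit. The scripts were tested on simulated data. An SE is the change divided by the root of F. Alternatives used DESeq2 1.42.0, limma-voom 3.58.1, other scalings and filters, a replicate block, a fit of the medium contrasts over all 12 libraries, and each library left out. The labels do not say whether replicates are separate cultures, so a p-value measures the spread between these libraries, which may be only technical.

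The 10 genes and the 4 lists were chosen with earlier results of these data known. All 10 genes are reported. From each list the up to 4 genes with the smallest adjusted p per recipient are named, except a few that are not reported here, and Fosb, Egr2 and Egr3 were named outside that rule, the last 2 after their values were seen. For likeness, protein-coding genes averaging 1 CPM or more were compared on log2 values with an offset of 0.5 CPM. Promoter windows came from RefSeq, in which 7 of the 10 genes were searched, and the other 3 were not used here.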

Additional observations from a re-analysis of the deposited data

Results flagged for a closer look

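For 7 of the 9 genes tested in both recipients the response to ferroptotic medium differed between MEFs and Hepa1 by the interaction test (adjusted p under 0.05, edgeR). Of all 12042 genes tested in both, 54.0% differed, 25.9% with the MEF value higher, as in these 7. The differences, as the MEF change minus the Hepa1 change on the log2 scale, were 1.98 for Egr1, 1.63 for Atf3, 0.90 for Ier3, 0.71 for Fosl2, 0.36 for Jun, 0.29 for Ier2 and 0.27 for Jund. Egr1 and Atf3 passed the test in opposite directions in the 2 recipients.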

How the results depend on the processing

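Over the alternatives run, the direction and call were kept in 134 of 140 values for the 10 genes in Hepa1, in 126 of 126 in MEFs and in 171 of 171 for the difference of the responses. The 6 others were all Ier2 in Hepa1, which passed with no count filter (adjusted p = 0.0256), with the replicate block (0.0407), with all 12 libraries (0.0483) and in the 3 fits without a library given above. With one library left out, 9 to 10 of the genes were lower in Hepa1 and 6 in MEFs. The replicate block gave 3760 genes higher and 3677 lower in Hepa1 and 4071 and 4002 in MEFs, and changed no other call of the 10 genes in the medium comparisons. The numbers were not used as pairs, since the labels do not say that they pair samples. Same-numbered replicates deviated together at only -0.0251 to 0.0522. Without scaling, calls were 4515 higher and 3169 lower in Hepa1 and 5211 and 2957 in MEFs (main 3865 and 3791, 4009 and 3934). Between recipients, no scaling left 3 of the genes higher in MEFs in ferroptotic medium (main 5), with Jun at -0.037 and Ier3 at -0.023, and gave Jun -0.42 and Egr1 -0.52 in control medium. With one library left out, Egr1 there ran from -0.020 to 0.11. Shares, as differences in percentage points, moved with the length. Values over unshared exons are all reads of a gene divided by its unshared exonic length. In Hepa1 Fosl1 was -5.64 (main -11.7), Fos 2.40 (main 6.57) and Fosl2 3.35 (main 5.19) as plain reads. Junb in Hepa1 was -16.3 as plain reads and -15.7 over unshared exons, chosen after seeing the data (main -17.1), and Jund in MEFs 12.4 over unshared exons (main 15.3). Shares within the spread between libraries changed sign: Fos in MEFs (main 0.415) to -0.0880 and -0.427 without the first control or second ferroptotic library (up to 1.08 without another), Fosb in Hepa1 (main -0.0500) to 0.00036 over unshared exons and 0.00611 without the second ferroptotic library (-0.103 to 0.00611 with one left out), and Jun in MEFs (main -0.548) to 0.339 as plain reads, 0.0303 by longest transcript and 0.293 without the second control library (-1.20 to 0.293 with one left out). Jun in Hepa1 (main 0.119) changed to -0.395 over unshared exons. Depth limits Fosl1 in MEFs (at most 14 reads per library) and, less so, Atf3 in MEFs, and 3 libraries against 3 cannot bring an exact permutation p below 0.1. The causes of these changes were not tested.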
